A study of Mus musculus with 18 samples.

Results

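This account covers 41 genes for the adaptor and linker proteins of focal adhesions, chosen by gene symbol from a written list. The choice was made with earlier results of these data known. All 41 were found among the 57180 genes of the deposited count table, and all 41 passed the low-count filter. They fall into 6 classes: 3 integrin activators, 3 KANK proteins, 6 members of the ILK-PINCH-parvin complex, 12 actin linkers, 10 LIM proteins, and 7 signalling kinases and scaffolds. RNA was sequenced from cultured aortic smooth muscle cells of C57BL/6 mice, which the labels assign to the thoracic aorta. Cells received a scramble siRNA, a control with no intended target, or an siRNA against Itgav, the gene of the integrin αV chain. They were then left unstimulated or were given TGF-β or PDGF-BB, which gives 6 groups of 3 libraries. Every group had been transfected, so untransfected cells are not part of the comparison. The labels give no dose, time or siRNA sequence and do not say whether the libraries of a group came from separate cultures. P-values therefore cover the variation among 3 libraries, part or all of which may be technical.

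A focal adhesion is the place where a cell holds its matrix. Integrins cross the membrane and bind matrix proteins outside, and a layer of adaptor proteins joins their short cytoplasmic tails to actin filaments. Talins and kindlins bind the tails of the β chains and switch integrins to their active form. The ILK-PINCH-parvin complex, vinculin, α-actinins, filamins and tensins carry force from the integrins to actin. LIM proteins such as zyxin and paxillin gather where the link is under tension, and kinases such as FAK and Src signal from the same place. KANK proteins bind talin at the rim of the adhesion and tie it to microtubule ends. In arterial smooth muscle these structures join the contractile filaments to the elastic and collagenous matrix of the vessel wall.

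Libraries held between 17705071 and 21592916 estimated counts, of which the 41 genes together took between 0.84% and 1.44%. Itgav stood at 300, 326 and 323 CPM (counts scaled to a common library size) in unstimulated scramble libraries and at 14.8, 14.1 and 16.4 CPM with its siRNA. With siRNA, 4.77% of its level was left in unstimulated cells, 5.16% under TGF-β and 7.12% under PDGF-BB. The smooth muscle markers Acta2, Tagln, Myh11, Cnn1, Myl9 and Smtn were all detected. Their summed level was 2210 to 2270 CPM in unstimulated scramble cells, 7010 to 7670 CPM under TGF-β and 1000 to 1040 CPM under PDGF-BB. Most of the unstimulated sum was Acta2 and Tagln, with means of 1060 and 719 CPM. Myh11 and Cnn1 had means of 22.9 and 18.5 CPM there. Of the mesothelial markers, Upk1b, Upk3b and Krt19 had means of 79.9, 43.9 and 32.5 CPM in the same cells. Msln, Wt1 and Lrrn4 had 1.28, 0.662 and 0.568 CPM. Pecam1, which marks endothelium, lay between 22.6 and 28.6 CPM in unstimulated scramble libraries, and the leukocyte marker Ptprc between 0.137 and 0.304 CPM. In such bulk RNA, fewer cells of a type and less RNA per cell cannot be told apart.

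Promoter windows from RefSeq (GRCm38.p6), which run from 250 bases before to 50 bases after a start site, were matched for 34 of the 41 genes, 49 windows in all. Vcl, the vinculin gene, and Fermt2, the kindlin-2 gene, are shown because both fell with Itgav siRNA in all 3 media and because both hold a CArG box, the binding motif of serum response factor, well before the start site. The stretch of Vcl is chr14:20929148-20929297 on the plus strand and that of Fermt2 chr14:45530166-45530315 on the minus strand. Each runs from base -250 to base -101 on the strand of the gene, with the CArG box in capitals.
Vcl: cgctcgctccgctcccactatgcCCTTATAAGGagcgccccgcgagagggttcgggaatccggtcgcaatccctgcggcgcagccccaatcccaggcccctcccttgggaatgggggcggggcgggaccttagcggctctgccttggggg
Fermt2: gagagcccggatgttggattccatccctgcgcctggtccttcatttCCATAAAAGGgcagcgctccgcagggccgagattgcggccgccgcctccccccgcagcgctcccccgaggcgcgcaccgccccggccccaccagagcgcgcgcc
The box of Vcl begins at base -227 and that of Fermt2 at base -204. Boxes were also found in the windows of Trip6 and Rsu1, where they begin after the start site. In all, 4 of the 49 member windows, from 4 of the 34 genes, held one. Among all 32851 windows of this length 1.63% held a CArG box. Other motifs were searched on both strands without removing overlaps between motifs. The letters CATTCC, the core of the TEAD motif, were in 9 of the 49 member windows, from 8 members, and in 14.7% of all windows. TGANTCA, the AP-1 motif, was in 4 of the 49, from 4 members, and in 7.81% of all windows. CAGAC, a SMAD motif, was in 21 of the 49, from 17 members, and in 49.6% of all windows. The core of the interferon-stimulated response element was in 1 of the 49, that of Pdlim5, and in 3.44% of all windows. These are matches of letters and say nothing of binding.

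Levels differed widely between the members. Per kilobase of transcript in unstimulated scramble cells, the caveolin gene Cav1 led with 549 ± 6.53 CPM per kb (SD, n = 3). The α-actinin gene Actn1 followed with 394 ± 9.27, the filamin gene Flna with 349 ± 5.76, the LIM protein gene Csrp1 with 265 ± 5.77 and Vcl with 172 ± 9.95 CPM per kb. The ranges of these first 5 did not overlap, whereas those of Vcl and the α-actinin gene Actn4, at 168 ± 0.732, did. At the low end were the myopodin gene Synpo2 with 4.45 ± 0.177, Kank4 with 3.35 ± 0.0801 and the β-parvin gene Parvb with 3.19 ± 0.361 CPM per kb, and the ranges of the last pair overlapped. The talin genes were far apart in level: Tln1 stood at 81.9 ± 2.29 and Tln2 at 14.1 ± 0.291 CPM per kb. Of the 41 genes, 16 had their highest mean in scramble cells under TGF-β. The lowest mean was in PDGF-BB-treated siRNA cells for 18 and in TGF-β-treated siRNA cells for 12. Such counts were not made over all genes, so they do not show a trait of the members.

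**Figure D1:**
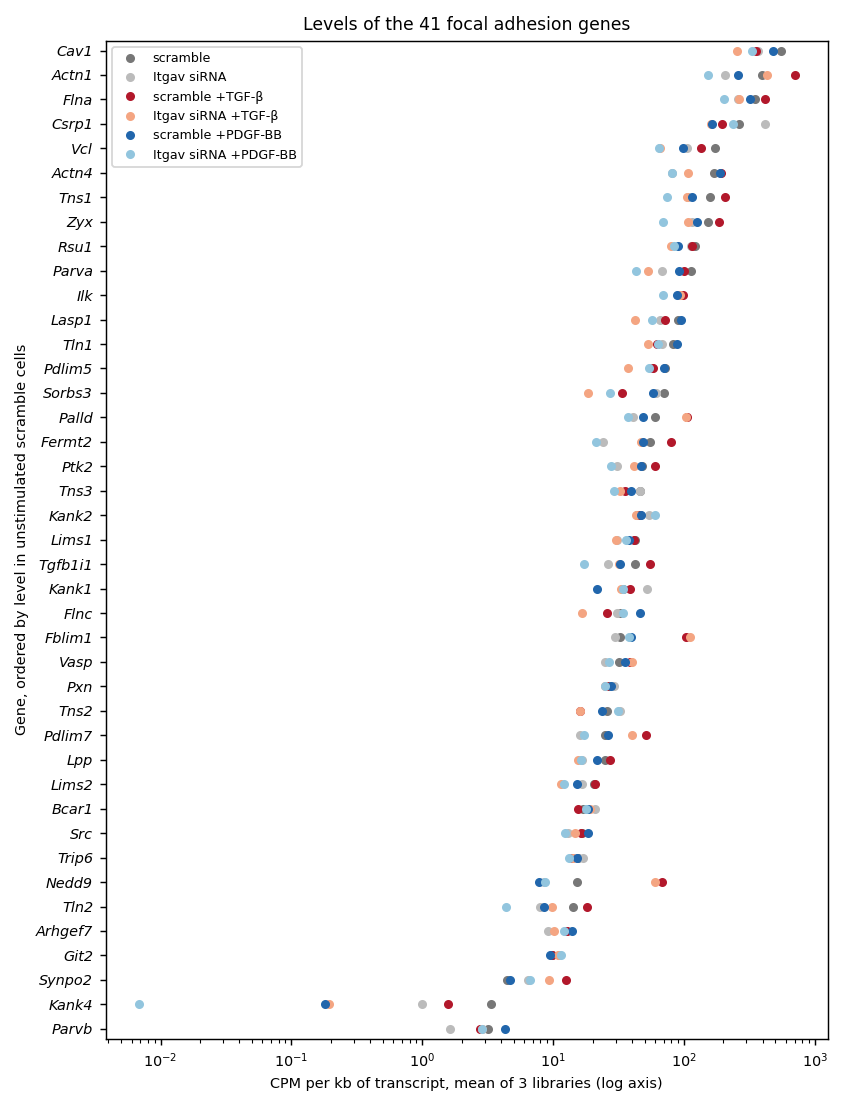
Mean CPM per kb of transcript (log axis) of the 41 genes in the 6 groups of 3 libraries, ordered by level in unstimulated scramble cells. Cav1 is at the top with 549 CPM per kb and Parvb at the bottom with 3.19, and Kank4 spreads furthest between groups; its lowest point rests on 2 counts.

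Itgav siRNA lowered most of these genes in every medium. In unstimulated cells 28 of 41 fell and 8 rose, where 27.5% and 25.9% of the 15832 genes tested fell and rose, 53.4% in all. A gene was taken to have changed when edgeR's quasi-likelihood test gave a p under 0.05 after Benjamini-Hochberg adjustment. Under TGF-β 30 fell and 1 rose, beside 24.3% and 24.1% of all genes, 48.4% in all. Under PDGF-BB 30 fell and 7 rose, beside 29.9% and 29.4%, 59.3% in all. The libraries did not overlap between siRNA and scramble for 38, 34 and 37 members in the 3 media, beside 61.4%, 55.6% and 61.9% of all genes. The median log2 fold change of the 41 was -0.40, -0.47 and -0.42 in the 3 media, while that of all genes was 0.01 in each. Falls of at least 1.5-fold were seen in 12, 17 and 16 of the 41, against 9.47%, 8.82% and 11.9% of all genes, and such rises in 2, 0 and 1, against 12.4%, 11% and 14.8%.

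The members are more abundant than most genes, with a median of 154 CPM over the 18 libraries against 17.3 CPM for all genes tested. Among the 9440 genes whose mean reached 10 CPM, 37.3% fell with siRNA in unstimulated cells, 32.9% under TGF-β and 40.3% under PDGF-BB. The members above that level numbered 40, of which 27, 29 and 29 fell. In all 3 media 20 of these 40 fell, beside 21.7% of genes at that level. Of the 41 members 21 fell in all 3 media and 0 rose, where 14.9% of all genes fell and 12.9% rose. These 21 are Tln1, Tln2, Fermt2, Kank4, Parva, Lims2, Vcl, Actn1, Actn4, Flna, Tns1, Sorbs3, Zyx, Tgfb1i1, Pdlim5, Pdlim7, Lpp, Lasp1, Ptk2, Arhgef7 and Cav1.

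Other measures moved with the siRNA too. All 12 of 12 listed interferon-response genes rose in each medium, and their summed level went from 208 to 436 CPM up to 6930 to 7980 CPM in unstimulated cells. Under TGF-β the sum was 133 to 159 CPM in scramble and 933 to 989 CPM in siRNA libraries, and under PDGF-BB 206 to 239 and 4230 to 6350 CPM. Of the 6 smooth muscle markers, 5, 6 and 5 fell in unstimulated, TGF-β and PDGF-BB cells, and their sum fell to 987 to 1110, 3360 to 3530 and 358 to 372 CPM. Of 10 adventitial fibroblast markers 7, 3 and 6 rose and 1, 2 and 1 fell. Their sum was 840 to 905 CPM without and 1050 to 1070 CPM with siRNA in unstimulated cells. It was 887 to 962 and 809 to 871 CPM under TGF-β, and 974 to 1070 and 1120 to 1170 CPM under PDGF-BB. Most of this sum was Gsn, at 683 to 743 CPM in unstimulated scramble libraries. With siRNA under TGF-β the mean of Gsn went from 804 to 730 CPM, so the sum mainly follows 1 gene. Of 6 mesothelial markers 3, 3 and 4 fell and 0, 1 and 0 rose, with sums of 155 to 166 and 90.5 to 93.1, 62.1 to 64.5 and 25.3 to 31, and 194 to 219 and 81.4 to 89.9 CPM. Of 10 endothelial markers 4, 2 and 6 fell and 1, 1 and 0 rose, with sums between 86.1 and 143 CPM in every group. Macrophage markers summed to between 9.25 and 27 CPM. No listed marker was at 0 in all libraries. The part of these shifts in the results for the adhesion genes was not tested. The labels name no further siRNA against Itgav. Loss of Itgav and a response to the siRNA itself therefore cannot be told apart in these data.

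**Figure D2:**
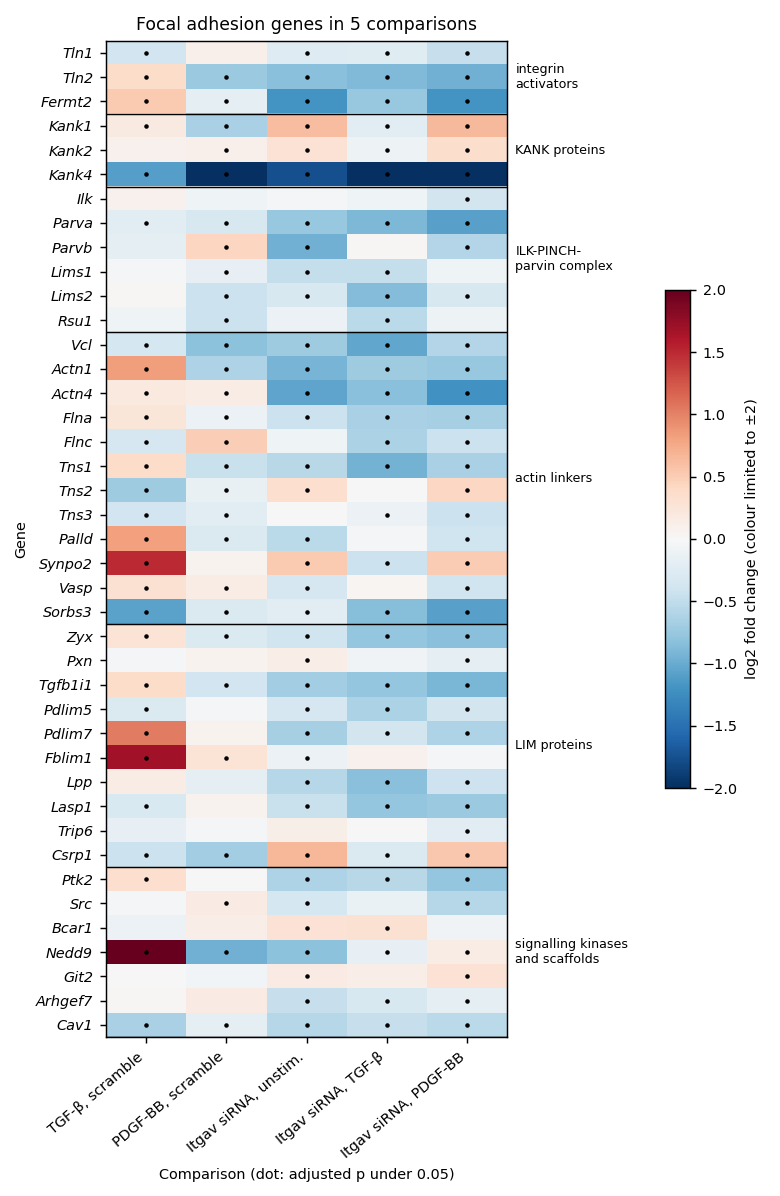
Log2 fold changes (colour, limited to ±2) of the 41 genes in rows, grouped by class, for 5 comparisons in columns; a dot marks an adjusted p under 0.05. The siRNA columns are mostly blue, with 28, 30 and 30 genes lower, and the TGF-β column is mixed, with 16 genes higher and 12 lower.

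All 3 integrin activators fell with siRNA in each of the media. Fermt2 encodes kindlin-2, which binds the integrin β tail together with talin. Its libraries read 165, 175 and 176 CPM in unstimulated scramble cells and 72.7, 74 and 77.3 CPM with siRNA. Under TGF-β the values were 244, 251 and 244 against 146, 146 and 146 CPM, and under PDGF-BB 148, 156 and 151 against 66.9, 64 and 67.3 CPM. The groups did not overlap in any medium. The falls were 2.3-fold (log2 -1.20 ± 0.041, standard error, adjusted p = 6e-16), 1.69-fold (-0.75 ± 0.04, 7.2e-13) and 2.3-fold (-1.20 ± 0.042, 4.9e-16). Tln2, the less abundant talin gene, stood at 128, 122 and 124 CPM without and 73.5, 68.9 and 68.4 CPM with siRNA. It stood at 162, 165 and 157 against 90.3, 89.4 and 82.5 CPM under TGF-β, and at 70.9, 81.7 and 72.2 against 36.1, 41 and 38.8 CPM under PDGF-BB. Its groups were apart in each medium, with log2 changes of -0.83 ± 0.056, -0.88 ± 0.055 and -0.96 ± 0.059. Tln1, the main talin, fell by less, with log2 changes of -0.27 ± 0.042, -0.24 ± 0.042 and -0.46 ± 0.042.

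The KANK genes did not move together. Kank4 is the least abundant of them and fell furthest. It read 16.4, 16.1 and 15.6 CPM in unstimulated scramble cells and 5.04, 3.92 and 5.34 CPM with siRNA. Under TGF-β it read 7.14, 6.94 and 8.33 CPM without and 1.37, 0.718 and 0.695 CPM with siRNA, and under PDGF-BB 0.505, 1.34 and 0.74 CPM without and 0.0978, 0 and 0 CPM with it. Groups did not overlap in any medium, but the last group rests on 2 counts in all. The log2 changes were -1.75 ± 0.18 (adjusted p = 4.2e-08) and -3.01 ± 0.25 (1.5e-09) in the first pair of media. Under PDGF-BB 52 counts stood against 2, 26.1 times fewer after depth correction, with an exact 95% interval from 6.86 to 221 that covers counting error only. The span of Kank4, introns included, overlaps that of Kank4os on the opposite strand, and the strand used in counting is not given. Reads from any stretch of exon that the pair shares could belong to either gene. Whether their exons overlap was not looked at.

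Kank1 went the other way without stimulus. It rose with siRNA from 168, 179 and 172 to 272, 260 and 258 CPM in unstimulated cells and from 100, 118 and 112 to 166, 176 and 178 CPM under PDGF-BB. Under TGF-β it went from 195, 209 and 183 to 160, 176 and 168 CPM. In each medium the groups were separate, higher with siRNA in the first pair and lower under TGF-β. The log2 changes were 0.61 ± 0.056 (adjusted p = 5.9e-09), 0.65 ± 0.057 (2.2e-09) and -0.22 ± 0.057 (0.0025). Kank2, the most abundant KANK gene per length, showed the same signs at smaller size, 0.29 ± 0.036, 0.36 ± 0.036 and -0.10 ± 0.037. Its fall under TGF-β had an adjusted p of 0.027, which became 0.093 without the low-count filter.

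In the ILK-PINCH-parvin complex, which couples β tails to actin, the α-parvin gene Parva had the smallest p. Its libraries read 495, 518 and 510 CPM without and 302, 304 and 294 CPM with siRNA in unstimulated cells. Under TGF-β they read 429, 431 and 462 against 236, 235 and 238 CPM, and under PDGF-BB 411, 404 and 403 against 185, 194 and 196 CPM. The siRNA groups lay below the scramble groups throughout, by log2 -0.76 ± 0.038, -0.90 ± 0.038 and -1.08 ± 0.038 (adjusted p = 2.2e-13, 1.7e-14 and 6e-16). Parvb, its low-level paralogue, read 10.4, 12.4 and 12.9 against 5.42, 7.48 and 5.39 CPM in unstimulated cells, a fall of 0.96 ± 0.13 on the log2 scale (adjusted p = 2.3e-06). Under PDGF-BB it read 16.3, 15.6 and 16.2 against 9.58, 11.5 and 10.9 CPM, a log2 change of -0.59 ± 0.12 (0.00022). With TGF-β its groups overlapped, at 9.63, 10.5 and 11 CPM without and 9.03, 12.3 and 10.5 CPM with siRNA (log2 0.03 ± 0.13, adjusted p = 0.88). Ilk, the core pseudokinase, did not pass in unstimulated cells (160 to 162 against 159 to 160 CPM, adjusted p = 0.69) or under TGF-β (adjusted p = 0.089), and fell under PDGF-BB by 0.36 ± 0.039. The PINCH genes Lims1 and Lims2 fell in 2 and 3 of the media, with log2 changes from -0.87 to -0.32 where they passed. Rsu1, whose protein binds PINCH, fell under TGF-β (-0.53 ± 0.052) and had a log2 change of -0.11 ± 0.051 without stimulus (adjusted p = 0.071).

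Among the 12 actin linkers 8, 9 and 10 fell and 2, 0 and 2 rose in unstimulated, TGF-β and PDGF-BB cells. Actn4 encodes α-actinin-4, which cross-links actin filaments. Its unstimulated libraries read 638, 634 and 632 CPM without and 312, 292 and 310 CPM with siRNA. Under TGF-β they read 712, 721 and 740 against 408, 404 and 402 CPM, and under PDGF-BB 698, 727 and 693 against 296, 311 and 304 CPM. All scramble libraries were above all siRNA libraries, and the log2 changes were -1.06 ± 0.036, -0.84 ± 0.036 and -1.22 ± 0.036 (adjusted p = 4.8e-16, 1.7e-14 and 4.2e-17). Vcl, which locks talin to actin, read 844, 925 and 943 CPM without and 559, 556 and 535 CPM with siRNA. It read 706, 744 and 675 against 347, 351 and 337 CPM under TGF-β and 475, 558 and 501 against 303, 358 and 356 CPM under PDGF-BB. Groups were separate each time, with log2 changes of -0.72 ± 0.062, -1.04 ± 0.062 and -0.59 ± 0.062 (adjusted p = 2e-09, 6.2e-12 and 3.5e-08). Tns1 encodes a tensin, which binds β tails and caps actin. It read 1360, 1400 and 1400 against 962, 945 and 946 CPM in unstimulated cells, 1760, 1830 and 1800 against 959, 917 and 928 CPM under TGF-β, and 993, 1060 and 1010 against 629, 676 and 650 CPM under PDGF-BB. No group pair overlapped, and the log2 changes were -0.55 ± 0.035, -0.95 ± 0.035 and -0.65 ± 0.035. Actn1, at 1230 to 1280 against 646 to 676 CPM in unstimulated cells, fell in all 3 media by 0.71 to 0.93 on the log2 scale, and Flna by 0.43 to 0.67.

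Sorbs3 encodes vinexin, a vinculin-binding adaptor. It read 215, 203 and 205 against 171, 188 and 179 CPM in unstimulated cells, 96.8, 95.1 and 104 against 57.9, 53.9 and 52.6 CPM under TGF-β, and 184, 166 and 160 against 86.5, 80.5 and 73.9 CPM under PDGF-BB. The siRNA libraries were lower in each medium, by log2 -0.21 ± 0.059, -0.85 ± 0.064 and -1.08 ± 0.061. Tns3, another tensin gene, read 269, 281 and 287 against 287, 279 and 278 CPM in unstimulated cells, where the groups overlapped (adjusted p = 0.81). Under TGF-β it read 214, 221 and 205 against 199, 204 and 191 CPM, and under PDGF-BB 232, 241 and 244 against 175, 178 and 181 CPM. It fell by 0.42 ± 0.041 under PDGF-BB (adjusted p = 8.8e-09) and by 0.11 ± 0.041 under TGF-β (0.029, and 0.064 without the low-count filter). Tns2 stands apart from the other tensin genes: it rose by 0.33 ± 0.053 and 0.41 ± 0.053 in unstimulated and PDGF-BB cells and was level under TGF-β (adjusted p = 0.96).

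Synpo2 encodes myopodin, an actin-bundling protein of Z-discs and adhesions in muscle. It rose with siRNA from 29, 31.2 and 31 to 42.1, 44.5 and 44.8 CPM in unstimulated cells and from 31.7, 30.9 and 32.7 to 45.6, 42.9 and 46.8 CPM under PDGF-BB. Under TGF-β it fell from 87.3, 88.3 and 80.3 to 67.4, 59.5 and 63.5 CPM. Groups were separate in each medium, with log2 changes of 0.53 ± 0.06, 0.50 ± 0.059 and -0.43 ± 0.055 (adjusted p = 1.4e-07, 1.9e-07 and 1e-06).

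**Figure D3:**
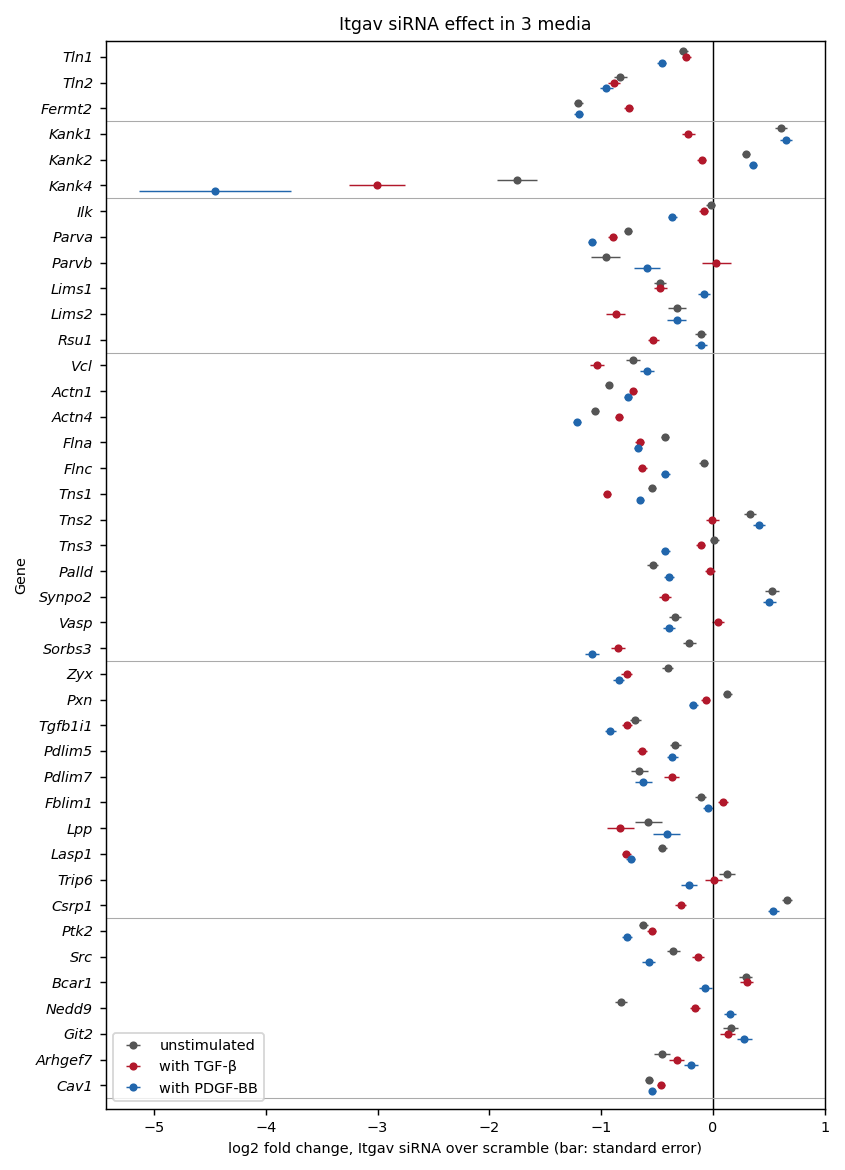
Log2 fold change of Itgav siRNA over scramble (horizontal axis, bars are standard errors) for the 41 genes in unstimulated, TGF-β and PDGF-BB cells, with grey lines between classes. Most points lie left of 0; Kank4 reaches -1.75, -3.01 and -4.46, the last on 2 counts, and Kank1, Kank2, Synpo2 and Csrp1 lie right of 0 except with TGF-β.

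Of the 10 LIM protein genes 7, 7 and 8 fell and 2, 0 and 1 rose. Zyx, the gene of zyxin, fell by 0.40 ± 0.048, 0.77 ± 0.048 and 0.84 ± 0.049 in unstimulated, TGF-β and PDGF-BB cells. Tgfb1i1, the gene of Hic-5, a close relative of paxillin, fell by 0.70 ± 0.048, 0.77 ± 0.047 and 0.92 ± 0.05. Paxillin itself, Pxn, lay between 87.1 and 106 CPM in the 18 libraries. It rose by 0.13 ± 0.04 in unstimulated cells (adjusted p = 0.0097, and 0.093 without the low-count filter) and fell by 0.18 ± 0.04 under PDGF-BB (0.00076). Csrp1 encodes a smooth muscle LIM protein that binds α-actinin and zyxin. It rose from 480, 475 and 495 to 742, 745 and 806 CPM in unstimulated cells and from 316, 286 and 294 to 445, 437 and 422 CPM under PDGF-BB. Under TGF-β it fell from 353, 346 and 375 to 303, 279 and 297 CPM. The groups did not overlap in any medium, and the log2 changes were 0.66 ± 0.046, 0.54 ± 0.047 and -0.29 ± 0.047 (adjusted p = 6.3e-11, 1.7e-09 and 2.2e-05). Fblim1 encodes migfilin, which joins filamin to kindlin. It read 85.9, 85.4 and 87.8 against 82.8, 75.7 and 81.6 CPM in unstimulated cells, 277, 286 and 271 against 298, 296 and 295 CPM under TGF-β, and 102, 108 and 105 against 96.1, 103 and 107 CPM under PDGF-BB. Its log2 change of -0.11 ± 0.046 in unstimulated cells had an adjusted p of 0.049 and did not pass without the low-count filter (0.13). It did not pass in the other media either (0.09 ± 0.043, adjusted p = 0.082, and -0.04 ± 0.045, adjusted p = 0.44).

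Of the 7 kinase and scaffold genes 5, 4 and 4 fell and 2, 1 and 2 rose. Ptk2, the gene of focal adhesion kinase, fell by 0.62 ± 0.043, 0.55 ± 0.043 and 0.77 ± 0.043 in the 3 media. Cav1, whose protein coats caveolae, read 1250 to 1270 against 836 to 858 CPM in unstimulated cells and fell by 0.57 ± 0.035, 0.47 ± 0.035 and 0.54 ± 0.035. Nedd9 encodes a scaffold of the Cas family that FAK and Src phosphorylate. It read 68.8, 69.5 and 72 against 41.6, 38.3 and 39.1 CPM in unstimulated cells, 309, 331 and 297 against 288, 281 and 271 CPM under TGF-β, and 36.1, 35.4 and 36.6 against 39.8, 37.9 and 42.5 CPM under PDGF-BB. It was lower with siRNA in the first pair and higher under PDGF-BB, by log2 -0.82 ± 0.053 (adjusted p = 1.6e-11), -0.16 ± 0.046 (0.0071) and 0.15 ± 0.055 (0.02). The last was 0.067 in a fit of the compared groups alone. Bcar1, the gene of p130Cas, another Cas protein, rose by 0.29 ± 0.056 in unstimulated cells and by 0.30 ± 0.058 under TGF-β, and was the only member to rise there. Git2, a partner of the exchange factor that Arhgef7 encodes, rose under PDGF-BB by 0.28 ± 0.066. Its rise of 0.16 ± 0.066 in unstimulated cells had an adjusted p of 0.046, and 0.081 in DESeq2. Arhgef7 fell by 0.45 ± 0.069, 0.32 ± 0.069 and 0.20 ± 0.066.

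**Figure D4:**
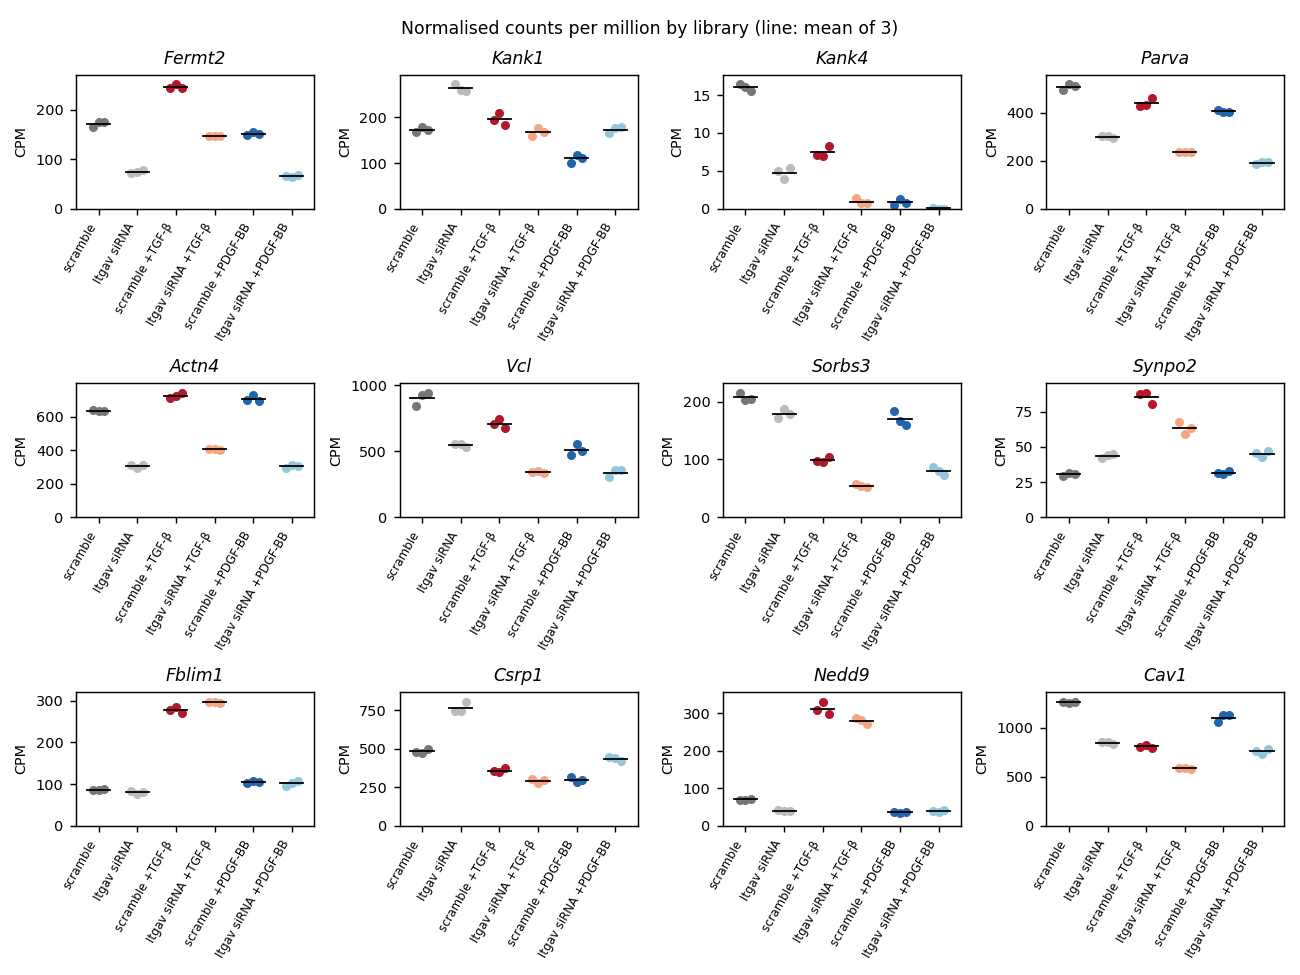
CPM (linear axis from 0) of 12 members in each of the 18 libraries, with a line at the mean of 3 libraries per group. Fermt2, Parva, Actn4, Vcl and Cav1 are lower in each siRNA group than in its scramble group, and Nedd9 and Fblim1 are highest in the TGF-β groups.

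TGF-β moved members in both directions in scramble cells, as it did genes at large. Of the 41, 16 rose and 12 fell, beside 23.4% and 24.8% of all genes tested, 48.3% in all, and the median log2 change was 0.02 against -0.01. At a mean of at least 10 CPM, 29.6% of genes rose and 28.7% fell, beside 16 and 11 of 40 members. The falls among members were thus near the share of genes at that level. Libraries did not overlap between the groups for 33 members, beside 55% of all genes. At least 1.5-fold rises were seen in 6 and falls in 4, where 9.68% and 11.7% of all genes rose and fell so far. TGF-β also raised 6 of 6 smooth muscle markers and lowered 7 of 12 interferon-response genes. It raised 3 and lowered 6 of 10 adventitial fibroblast markers, 0 and 4 of 6 mesothelial, 1 and 4 of 10 endothelial, and 1 and 4 of the 5 macrophage markers tested. Their part in these results was not tested. Nedd9 had the largest rise, from the 68.8 to 72 CPM given above to 297 to 331 CPM, 4.46-fold (log2 2.16 ± 0.05, adjusted p = 3.2e-19). Fblim1 rose 3.22-fold (1.69 ± 0.045, adjusted p = 4.1e-18) and Synpo2 2.81-fold (1.49 ± 0.058, adjusted p = 2.3e-15). The libraries of these 3 genes did not overlap between the groups. Pdlim7, the gene of the PDZ-LIM protein Enigma, rose 2.05-fold, Actn1 1.79-fold and Palld, the gene of the actin cross-linker palladin, 1.77-fold. Kank4 fell 2.15-fold (-1.10 ± 0.18), Sorbs3 2.11-fold (-1.08 ± 0.061), Tns2 by 0.71 ± 0.055 and Cav1 by 0.64 ± 0.035 on the log2 scale. By class, 7 of 12 actin linkers rose and 5 fell, 4 of 10 LIM protein genes rose and 3 fell, and of the 6 genes of the ILK-PINCH-parvin complex 0 rose and 1, Parva, fell (-0.20 ± 0.037). The talin genes moved apart, with Tln1 lower (-0.38 ± 0.042) and Tln2 higher (0.37 ± 0.054).

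PDGF-BB mainly lowered the members in scramble cells. Of the 41, 21 fell and 7 rose, beside 19.2% and 16.9% of all genes, 36.1% in all, and the median log2 change was -0.14 against 0.01. At a mean of at least 10 CPM, 25.9% of genes fell and 20.7% rose, beside 20 and 7 of 40 members. Libraries did not overlap for 33 members, beside 44.1% of all genes. At least 1.5-fold falls were seen in 7 members and 5.75% of all genes, and no member rose so far, where 5.26% of all genes did. With PDGF-BB 6 of 6 smooth muscle markers and 4 of 12 interferon-response genes fell. Adventitial fibroblast markers rose in 5 and fell in 4 of 10 cases, mesothelial in 3 and 1 of 6, endothelial in 2 and 0 of 10, and macrophage in 2 and 1 of 5. The part of these shifts was not tested. The count of 7 rises depended on the filter: it was 4 without a low-count filter, 11 with a filter at a mean of 1 CPM, and 4 when only the compared groups were fitted. Kank4 fell from 998 counts to 52, 18.8 times fewer after depth correction, 14.2 to 25.3 by counting error alone (log2 -4.22 ± 0.23, adjusted p = 3.1e-12). Nedd9 fell 1.95-fold (-0.96 ± 0.053), Vcl 1.77-fold (-0.82 ± 0.062), Tln2 1.67-fold (-0.74 ± 0.055), Csrp1 1.62-fold (-0.69 ± 0.047), Kank1 1.57-fold (-0.65 ± 0.057) and Actn1 1.54-fold (-0.62 ± 0.034). In each of these the libraries of the groups did not overlap. The rises were small, the largest being those of Flnc, the gene of the muscle filamin (0.50 ± 0.04), and Parvb (0.43 ± 0.12). Comparisons with either factor share the unstimulated scramble libraries, so the values of a gene in them are not independent. Nedd9 stood at 2.16 with TGF-β and -0.96 with PDGF-BB, Actn1 at 0.84 and -0.62, Tln2 at 0.37 and -0.74, and Synpo2 at 1.49 and 0.06, the last not past the threshold (adjusted p = 0.45).

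In Itgav siRNA cells TGF-β raised 14 and lowered 18 of the 41, beside 27.9% and 29.6% of all genes, 57.5% in all. PDGF-BB raised 6 and lowered 24, beside 17.2% and 19.2%, 36.4% in all. At a mean of at least 10 CPM, TGF-β raised 34.8% and lowered 33% of genes, beside 14 and 17 of 40 members. PDGF-BB raised 20.2% and lowered 25.9% of genes at that level, beside 6 and 23 of 40 members. Of the markers, TGF-β raised 5 and lowered 1 of 6 smooth muscle genes there, 3 and 6 of 10 adventitial fibroblast, 1 and 3 of 6 mesothelial, 3 and 5 of 10 endothelial and 2 and 2 of 5 macrophage genes, and lowered 12 of 12 interferon-response genes. PDGF-BB raised 0 and lowered 5 of 6 smooth muscle genes, 3 and 4 of 10 adventitial fibroblast, 2 and 2 of 6 mesothelial, 2 and 1 of 10 endothelial and 3 and 1 of 5 macrophage genes, and lowered 5 of 12 interferon-response genes. Their part in these counts was not tested. Libraries did not overlap for 35 members with TGF-β and 33 with PDGF-BB, beside 64.6% and 48.2% of all genes. Changes of at least 1.5-fold with TGF-β were rises in 8 and falls in 9 members, beside 13.6% and 15.9% of all genes. With PDGF-BB they were a rise in 1 and falls in 10, beside 6.75% and 5.63%. With siRNA TGF-β raised Nedd9 7.05-fold (log2 2.82 ± 0.052), Fblim1 3.71-fold (1.89 ± 0.046) and Palld 2.52-fold (1.34 ± 0.048), and lowered Sorbs3 3.28-fold (-1.71 ± 0.063) and Csrp1 2.61-fold (-1.38 ± 0.047). Kank4 went from 275 to 50 counts with TGF-β and from 275 to 2 with PDGF-BB, 145 times fewer, 39.7 to 1200 by counting error alone. PDGF-BB lowered Sorbs3 2.23-fold (-1.16 ± 0.061) and Tln2 1.82-fold (-0.86 ± 0.06) in these cells. Nedd9, which PDGF-BB lowered in scramble cells, was at 38.3 to 41.6 CPM without and 37.9 to 42.5 CPM with PDGF-BB in siRNA cells, and the groups overlapped (adjusted p = 0.87).

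Whether the siRNA effect differed between media was tested as a difference of log2 changes. Between TGF-β and unstimulated cells 26 of 41 members differed, with the siRNA effect more negative under TGF-β for 17 and more positive for 9, beside 11% and 12.2% of all genes, 23.2% in all. Differences of at least 1.5-fold were negative for 5 and positive for 2 members, beside 4.83% and 4.54% of all genes. At a mean of at least 10 CPM, 14.8% of genes were more negative and 16.5% more positive, beside 16 and 9 of 40 members. Csrp1 (-0.95 ± 0.066, adjusted p = 6.6e-10), Synpo2 (-0.95 ± 0.081, 1.5e-08) and Kank1 (-0.83 ± 0.08, 8.5e-08) were higher with siRNA in unstimulated cells and lower with it under TGF-β. Kank2 (-0.40 ± 0.052) had the same signs, though its fall under TGF-β lost the threshold without the low-count filter (adjusted p = 0.093). Over the 3 media, 6 members passed in opposite directions in different media, beside 5.05% of all genes. They are Csrp1, Synpo2, Kank1, Kank2, Pxn and Nedd9. Besides Kank2, Pxn in unstimulated cells (adjusted p = 0.093) and Nedd9 under PDGF-BB (0.07) lost the threshold without that filter. The count of 6 therefore depends on the filter. The effect on Parvb (0.99 ± 0.18, adjusted p = 0.00038), Nedd9 (0.66 ± 0.07) and Palld (0.51 ± 0.066) was less negative under TGF-β, as was that on Fermt2 (0.45 ± 0.057). Between PDGF-BB and unstimulated cells 18 differed, 15 more negative and 3 more positive, beside 9.32% and 9.51% of all genes, 18.8% in all. There 2 were negative and 1 was positive by at least 1.5-fold, beside 2.07% and 2.82%. At a mean of at least 10 CPM, 13.8% of genes were more negative and 13.8% more positive, beside 14 and 3 of 40 members. Nedd9 had the smallest p (0.98 ± 0.076, adjusted p = 1.4e-08), followed by Sorbs3 (-0.87 ± 0.084, 2.9e-07) and Tns3 (-0.44 ± 0.057, 1.5e-05). For Fermt2 the difference was 0.00 ± 0.059, for Csrp1 -0.12 ± 0.065, for Kank1 0.04 ± 0.08 and for Synpo2 -0.02 ± 0.084, and none of the 4 passed. The values of -1.26 ± 0.33 for Kank4 with TGF-β (adjusted p = 0.0071) and -2.71 ± 0.81 with PDGF-BB (0.023) rest on few counts. Without siRNA PDGF-BB library 2 the latter became -2.16 (0.11) and without library 3 -2.25 (0.09). With TGF-β the difference was positive for 0 and negative for 7 of 12 interferon-response genes. It was positive for 1 and negative for 1 of 6 smooth muscle markers, and for 2 and 4 of 10 adventitial fibroblast markers. The counts were 0 and 2 of 6 mesothelial, 1 and 0 of 10 endothelial, and 1 and 0 of 5 macrophage markers. With PDGF-BB it was negative for 3 smooth muscle and 2 mesothelial, positive for 2 adventitial fibroblast, and passed for 0 other listed genes. Their part in these results was not tested.

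**Figure D5:**
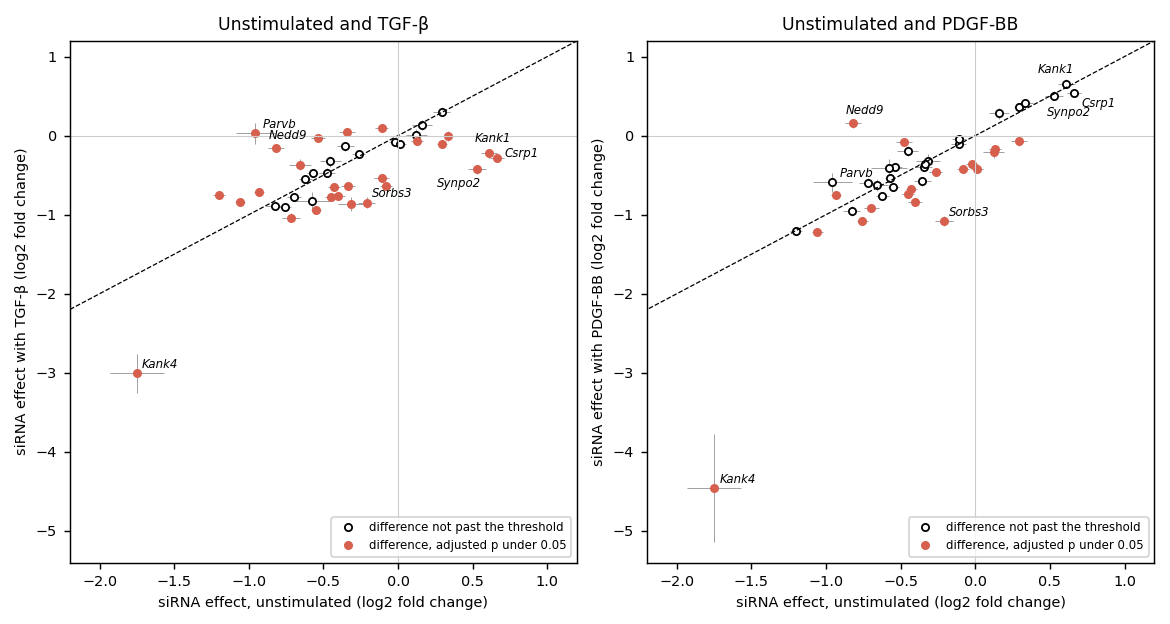
Log2 fold change of Itgav siRNA in unstimulated cells (horizontal) against that under TGF-β (left) or PDGF-BB (right) for the 41 genes, with standard errors; the dashed line marks equal effects and filled points are the 26 and 18 genes whose effects differed. Csrp1, Synpo2 and Kank1 sit right of 0 and below 0 in the left panel and near the line in the right panel.

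Transcript shares within a gene were tested for 167 transcripts of 35 members. Between 0 and 2 member transcripts passed per comparison, where 0.346%, 0.236%, 0.474%, 0.358% and 0.501% of the 33544 transcripts tested passed for TGF-β, PDGF-BB and siRNA in unstimulated, TGF-β and PDGF-BB cells. Among the member transcripts that passed, the largest shift was in Sorbs3 with siRNA under PDGF-BB, the only one of them past 10 percentage points. In that comparison 0.176% of all transcripts passed and moved so far. The transcript Sorbs3-203 (chr14:70180468-70206022, GRCm38, protein coding) made up 13.6%, 11.2% and 11.4% of the estimated counts of the gene in scramble libraries and 38.7%, 27.6% and 29.7% in siRNA libraries (adjusted p = 0.0024). In unstimulated cells it made up 20.4%, 17.2% and 13.2% without and 38.3%, 30.9% and 22.7% with siRNA, and under TGF-β 16%, 12.2% and 17.9% without and 35.9%, 32.6% and 26% with it. The groups were separate in each medium, but the test did not pass in the first pair. These shares are estimates from reads that the isoforms have in common. The other called transcripts were Flna-201, Zyx-201 and Palld-203, which moved by at most 5.76 points in size.

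A further 68 adhesion genes were listed beside the members, and 63 were tested. With siRNA 16 rose and 26 fell in unstimulated cells, beside 25.9% and 27.5% of all genes. Under TGF-β 14 rose and 24 fell, beside 24.1% and 24.3%, and under PDGF-BB 17 and 30, beside 29.4% and 29.9%. The median log2 changes of the 63 were -0.07, -0.09 and -0.16, where those of the members were -0.40, -0.47 and -0.42. Members and list were chosen with earlier results of these data known. The contrast therefore does not show that the fall is particular to the members. TGF-β raised 25 and lowered 23 of the 63 in scramble cells, beside 23.4% and 24.8% of all genes, and PDGF-BB raised 12 and lowered 21, beside 16.9% and 19.2%. Fhl1, which encodes a LIM-only protein of muscle, fell with siRNA by 1.35 ± 0.04, 2.05 ± 0.041 and 1.72 ± 0.041 on the log2 scale in the 3 media. Pdlim1, a PDZ-LIM gene that was not a member, fell by 0.89 ± 0.046 in unstimulated cells and by 1.40 ± 0.047 under PDGF-BB, and rose by 1.39 ± 0.045 with TGF-β in scramble cells. Csrp2, the paralogue of Csrp1, rose by 1.74 ± 0.064 with TGF-β. Sorbs2, a relative of Sorbs3, fell with siRNA by 1.64 ± 0.065 under TGF-β and 1.48 ± 0.063 under PDGF-BB. The effect on it was more negative in both than in unstimulated cells (adjusted p of the difference 2.6e-08 and 6e-07). Tes, the gene of the zyxin-binding protein testin, rose with TGF-β (1.12 ± 0.045) and with PDGF-BB (0.96 ± 0.045).

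Of the 41 genes 22 overlap a gene on the opposite strand in GENCODE M21 by whole span, introns included. Among them are Vcl, Kank1, Kank4, Nedd9, Synpo2, Sorbs3, Actn4, Tln2 and Parva. Fermt2, Fblim1, Csrp1, Parvb, Tns1 and Tns3 do not.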

How the data were processed

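RNA-seq of 18 libraries in 6 groups of 3 was analysed. Per the submitters' processing notes, reads were handled with HISAT2 2.2.1, StringTie 2.1.6 and the mm10 build. The authors deposited estimated counts for 57180 genes and 149132 transcripts. Of the gene values above 0, 76.2% were whole, and all were rounded. Whether counting used strand is not given in the sources used here.

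All 18 libraries entered the same edgeR 4.0.16 fit (R 4.3.3), which had TMM factors of 0.925 to 1.07 and 1 coefficient for each group. Quasi-likelihood tests had 12 residual degrees of freedom. filterByExpr with a minimum count of 10 left 15832 genes and at least 99.91% of each library's counts. Variation between replicates, as edgeR's BCV, was 6.01%. P-values were Benjamini-Hochberg adjusted over all genes, and a gene passed at an adjusted p under 0.05. A standard error is the log2 fold change divided by the square root of F. CPM use TMM-scaled totals, and CPM per kb the count-weighted length of GENCODE M21 transcripts. Transcript shares were tested with diffSpliceDGE. The fit was also run on counts simulated from its own dispersions, with few genes changed. That run cannot show how the fit behaves where a large share of genes changes, as here.

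Members, classes and lists were chosen with earlier results of these data known. Values in every library are given for the 4 passing members with the largest change in each of 5 comparisons (mean of at least 5 CPM), the 3 with the smallest p in each of 2 differences, and the member with the smallest p per class, 15 in all. Other members, and the share of genes above 10 CPM, were chosen for mention after values were seen. Replicate numbers showed no sign of pairing: 45 same-number pairs had correlations of -0.088 to 0.097, and 90 other pairs -0.104 to 0.096. Such values cannot show whether same-numbered libraries shared a culture or a batch. The closest pair of replicates had a chi-square of 2.21 per degree of freedom against binomial counting error. The values are estimated counts, which need not follow that error. The figure therefore cannot decide whether a pair was a repeat of the same library. Alternatives tried were other filters, DESeq2 size factors, DESeq2 1.42.0, a replicate block, summed transcript counts, the compared groups alone, a transcript minimum count of 30, and each library left out.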

Additional observations from a re-analysis of the deposited data

Results flagged for a closer look

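The effect of Itgav siRNA differed between media for the members below, by edgeR's test of the difference of 2 log2 fold changes. Both differences share the unstimulated libraries. Values are the log2 effect in the stimulated cells minus that in unstimulated cells. A negative value means that the siRNA effect was more negative under the stimulus. For a gene that fell in unstimulated cells, this is a larger fall.

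For TGF-β the value was lower than 0 for 17 members: Kank1 -0.83, Kank2 -0.40, Kank4 -1.26, Lims2 -0.55, Rsu1 -0.42, Vcl -0.32, Flna -0.23, Flnc -0.55, Tns1 -0.40, Tns2 -0.34, Synpo2 -0.95, Sorbs3 -0.64, Zyx -0.37, Pxn -0.19, Pdlim5 -0.30, Lasp1 -0.32 and Csrp1 -0.95. It was higher than 0 for 9: Fermt2 0.45, Parvb 0.99, Actn1 0.22, Actn4 0.22, Palld 0.51, Vasp 0.39, Pdlim7 0.29, Fblim1 0.20 and Nedd9 0.66.

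For PDGF-BB the value was lower than 0 for 15 members: Tln1 -0.19, Kank4 -2.71, Ilk -0.34, Parva -0.33, Actn4 -0.16, Flna -0.24, Flnc -0.34, Tns3 -0.44, Sorbs3 -0.87, Zyx -0.44, Pxn -0.31, Tgfb1i1 -0.22, Lasp1 -0.28, Trip6 -0.34 and Bcar1 -0.36. It was higher than 0 for 3: Lims1 0.40, Actn1 0.18 and Nedd9 0.98.

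Groups held 3 libraries, too few to look for a library far from the others. The difference lost the threshold without at least 1 of the libraries for Fblim1 and Pdlim7 with TGF-β and for Actn1, Actn4, Kank4, Tgfb1i1, Tln1 and Trip6 with PDGF-BB. Without the low-count filter it was lost for Pxn (adjusted p = 0.091) and Fblim1 (0.079) with TGF-β, and for Actn1 (0.051), Actn4 (0.094) and Tgfb1i1 (0.093) with PDGF-BB. With the compared groups alone it was lost for Actn4 with PDGF-BB (0.051).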

How the results depend on the processing

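Counts of genes, members and transcripts passing kept within 1.5 times of the values reported in 204 of 209 comparisons with an alternative setting and in 243 of 258 with a library left out. The members raised by PDGF-BB in scramble cells, 7 in the report, were 4 without a low-count filter, 11 with a filter at a mean of 1 CPM and 4 with only the compared groups fitted. Members raised by siRNA under TGF-β, 1 in the report, were 2 with the filter at 1 CPM and 1 to 2 with libraries left out. Member transcripts called for siRNA under TGF-β, 1 in the report, were 2 at a minimum count of 30. With libraries left out, member transcripts called ranged from 1 to 3 for TGF-β, 0 to 2 for siRNA in unstimulated cells, 0 to 1 under TGF-β and 1 to 3 under PDGF-BB. All transcripts called ranged from 50 to 82 for PDGF-BB, 102 to 131 for siRNA in unstimulated cells and 97 to 168 under PDGF-BB. The cause was not tested in any of these.

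With the replicate block, members higher and lower were 16 and 12 for TGF-β, 9 and 21 for PDGF-BB, 8 and 28, 1 and 30, and 7 and 31 for siRNA in unstimulated, TGF-β and PDGF-BB cells. They were 15 and 18 and 6 and 25 for TGF-β and PDGF-BB in siRNA cells, and 9 and 17 and 4 and 15 for the differences. Same-numbered libraries were not correlated, and 8 of 18 correlated best with their own number.

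Of the single-member results, 34 of 2004 lost the threshold under another setting and 94 of 2010 with a library left out. Of those named in the report, Nedd9 with siRNA under PDGF-BB lost it without scramble library 2 (adjusted p = 0.062) or siRNA library 3 (0.12) of that medium, and Arhgef7 without scramble library 2 (0.1) or siRNA library 1 (0.12). Under TGF-β Nedd9 lost it without scramble library 2 (0.057). In the same medium Kank2 lost it without scramble library 1 or 2 or siRNA library 2 or 3 (0.051 to 0.085), and Tns3 without scramble library 1 or 2 or siRNA library 3 (0.052 to 0.12). In unstimulated cells Fblim1 (0.074 to 0.3) and Git2 (0.067 to 0.11) each lost it without any scramble library and without siRNA library 2 or 3. The sign turned only in results that had not passed and lay near 0. With libraries left out, siRNA under TGF-β gave -0.03 to 0.03 for Tns2, -0.09 to 0.12 for Parvb and -0.07 to 0.01 for Palld, and in unstimulated cells -0.02 to 0.04 for Tns3. PDGF-BB in siRNA cells gave -0.03 to 0.05 for Nedd9. The difference with PDGF-BB gave -0.02 to 0.03 for Fermt2, -0.06 to 0.01 for Synpo2 and -0.03 to 0.09 for Kank1. Without a low-count filter that of Fermt2 was -0.01. Tns2 under TGF-β was 0 with DESeq2 size factors and 0.01 with the filter at 1 CPM. Some results that had not passed did so elsewhere. Rsu1 with siRNA in unstimulated cells passed with the replicate block (0.042) and with the compared groups alone (0.035). Under TGF-β Fblim1 passed with the filter at 1 CPM (0.037), Ilk without scramble library 2 (0.026) and Git2 without siRNA library 3 (0.017). Depth limits Kank4 under PDGF-BB, where siRNA libraries held 2 counts.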
